A study of Mus musculus with 6 samples.

Results

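The 38 genes described here drive or mark the cell cycle, out of 55487 genes in the deposited tables, and were chosen by symbol. They comprise 10 genes of S phase (Mcm2 to Mcm7, Pcna, Rrm1, Rrm2 and Tyms), 4 cyclins of G1 and of entry into S phase (Ccnd1, Ccnd2, Ccne1 and Ccne2), and 24 genes of G2 and mitosis. Their RNA was compared between 3 mutant and 3 control liver libraries of male C57/Bl6J mice on a high-fat diet, and the labels do not say that each library is a separate animal. The genotype labels give every sample a Cre transgene, Alb cre +/-, in which the albumin promoter directs the recombinase to hepatocytes. The mutants add an RXRa f/f allele, and the controls carry the transgene alone although their titles call them WT. For the mutants the design text names an Rxra S65A form instead, gene-level values cannot show which form was made, and ages are not given. Rxra had 700, 522 and 609 CPM in mutants, against 501, 470 and 413 CPM in controls (log2 fold change 0.40 ± 0.13, edgeR adjusted p = 0.0724).

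A dividing cell passes through G1, copies its DNA in S phase and separates the copies in mitosis. D-type cyclins with CDK4 or CDK6, then E-type cyclins with CDK2, inactivate the RB protein and release E2F factors, which switch on replication genes. Mitotic genes are switched on later by B-MYB and FOXM1, at promoters that often hold a CHR element, and the DREAM complex holds them down in resting cells. Most hepatocytes of the adult liver are out of the cycle, so RNA for mitotic proteins is scarce there and can come from any dividing cell type of the organ.

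Library totals lay between 35847386 and 43162557 estimated counts. TPM, the authors' length-scaled abundance, is used to order genes by level. CPM, here estimated counts scaled to library size after TMM adjustment, is used to compare a gene between groups. Fold changes are mutant over control, fitted with TMM scaling and given as log2 with their SE. The median log2 fold change of the 14286 tested genes was 0.00 with TMM, -0.40 at library totals and -0.48 on log2(TPM + 1), so fold changes are relative to the typical gene. In TPM all 3 mutants lay below all 3 controls for 64.5% of tested genes. Calls below were made at an adjusted p under 0.05 in edgeR's quasi-likelihood test over all tested genes.

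Of the 38 genes, 2 fell in the mutant livers and 0 rose. Those that fell were Ccnd1, encoding cyclin D1, and Kif23, encoding a kinesin of cell division, while 36 did not pass. The call rate over all tested genes was 13.5%, with 6.82% lower and 6.64% higher, so the share of called members was not above it. At an unadjusted p under 0.05 there were 9 members, all lower in mutants, against 29.0% of all tested genes in either direction. DESeq2 called 3 lower (Ccnd1, Kif23 and Mki67) and 0 higher, against 10.3% and 9.46% of all genes. At library totals, where 31.6% of all genes were called lower and 2.05% higher, 10 members were lower and 0 higher.

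Fitted fold changes were below 0 for 29 of the 38, with a median log2 value of -0.59. Of all 14286 tested genes 7141 were below 0. Of the 2238 tested genes with a mean under 1 CPM, a level shared by 20 members, 1395 were below 0, with a median of -0.28. In that range 4.11% were called, and all mutants lay below all controls for 18.4%. In CPM all mutants lay below all controls for 10 members and above for 0, where the backgrounds were 17.5% and 17.4%.

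All 38 genes passed the filter on low counts, but 14 did so through the controls alone, 13 of them in G2 and mitosis. Kif23, Bub1, Cenpf and Mki67, described below, are among these 14. Passing in this way favours genes that are lower in the mutants, although Cenpe, with a log2 fold change of 0.11, is among the 14. Counts of directions over these genes are therefore a description. The S phase genes had 235 to 2700 estimated counts over the 3 controls and a median SE of 0.35 on the log2 scale. The mitotic genes had 45 to 350 counts over the controls and a median SE of 0.72, and 12 of the 24 had fewer than 50 counts over the 3 mutants.

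**Figure D1:**
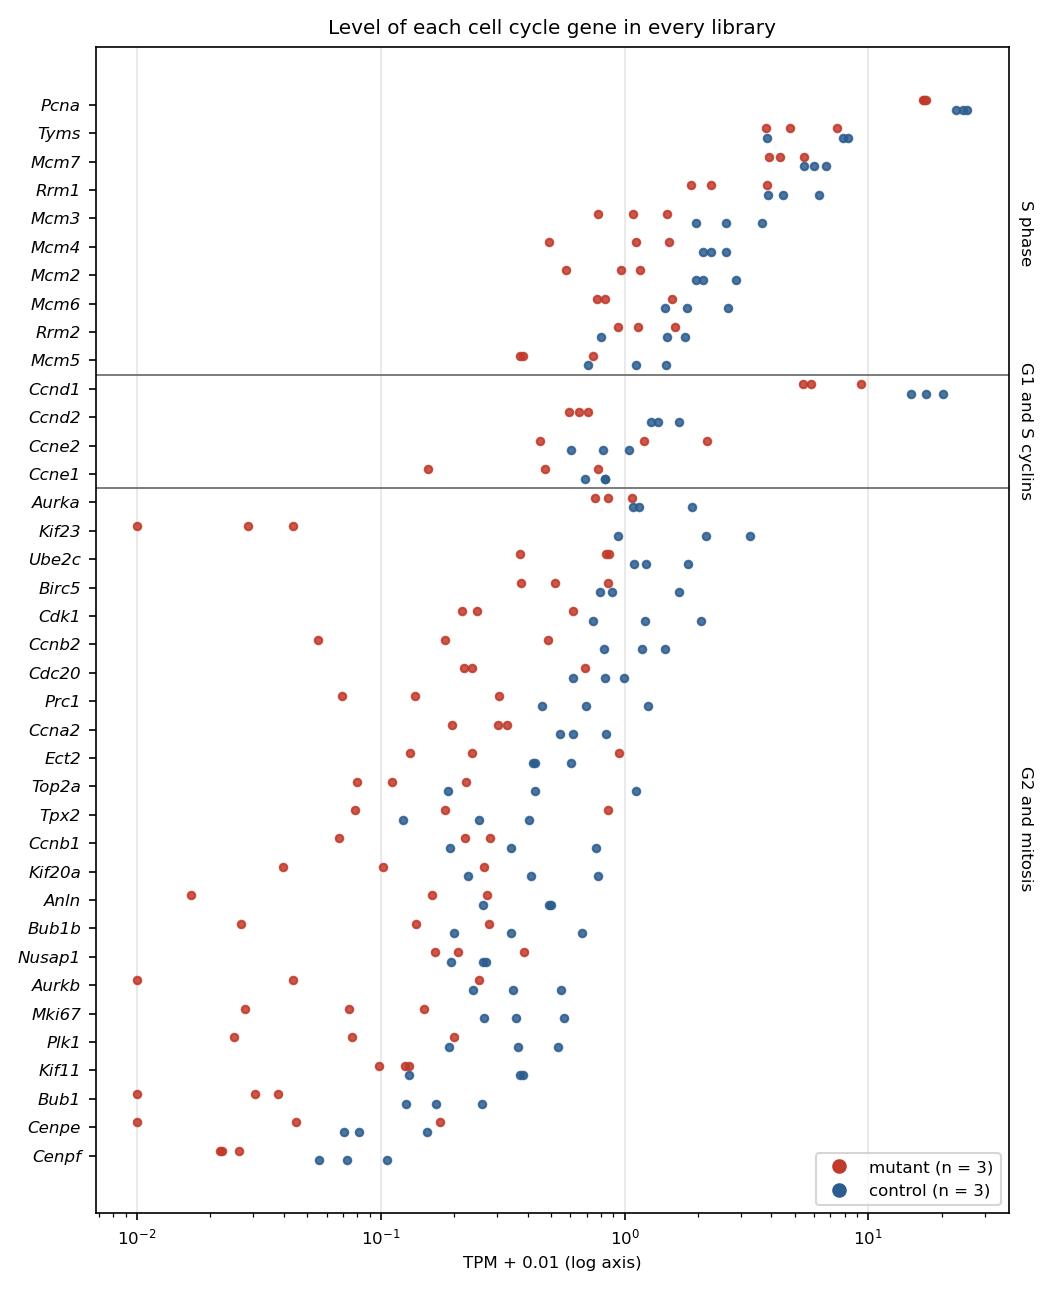
Deposited TPM of the 38 genes in every library, on a log axis after adding 0.01, in blocks by role, with mutants (red) above controls (blue) in each row. Pcna was the most abundant, averaging 17.0 TPM in mutants and 24.3 TPM in controls, and most mitotic genes lay below 1 TPM.

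On the TPM scale the replication genes were the more abundant. Their median was 1.17 TPM in mutants and 2.53 TPM in controls, and that of the mitotic genes was 0.151 TPM in mutants and 0.443 TPM in controls. A group mean of at least 1 TPM was reached by 0 of 24 mitotic genes in mutants and by 6 in controls. Among S phase genes the numbers were 8 of 10 in mutants and 10 in controls. Over all genes, each mutant library also had fewer genes at 1 TPM or more (10567 to 10863) than each control (11948 to 11998).

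Promoter letters, which the choice of genes did not use, differed between the roles. The RefSeq promoter table (GRCm38.p6) held windows, from 250 bases before to 50 after the start, for 30 of the 38 genes, among them 9 of S phase and 20 of G2 and mitosis. Ccne2, Aurkb, Kif20a, Ccnd1, Ccna2, Tpx2, Mcm4 and Ccnd2 had none. Both strands were searched, and matches could overlap. A CHR match, TTTGAA or TTCGAA, stood in 16 of 20 mitotic genes (80%), in 2 of 9 S phase genes (22.2%) and in 21.7% of the 27025 genes of the table. An E2F match, TTTCGCGC, TTTGGCGC, TTTCCCGC or TTTGCCGC, stood in 1 of 20 mitotic genes (5%), in 4 of 9 S phase genes (44.4%) and in 2.6% of all genes. A CCAAT box stood in 85% of the mitotic genes, 88.9% of the S phase genes and 41.1% of all genes. A match is a description of letters, not a shown binding site.

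The stretches below run from 150 bases before to 50 after the start. Kif23, Bub1 and Mki67 are shown as the mitotic genes with a window that had the lowest fitted fold changes, and Mcm3 and Mcm6 as replication genes with E2F matches. All are given 5′ to 3′ on the minus strand, and capitals mark CHR matches in the mitotic genes and E2F matches on either strand in the Mcm genes, 2 of which overlap in Mcm6. They lie at chr9:61946750-61946949 for Kif23, chr2:127831810-127832009 for Bub1, chr7:135716330-135716529 for Mki67, chr1:20820263-20820462 for Mcm3 and chr1:128359656-128359855 for Mcm6.
Kif23: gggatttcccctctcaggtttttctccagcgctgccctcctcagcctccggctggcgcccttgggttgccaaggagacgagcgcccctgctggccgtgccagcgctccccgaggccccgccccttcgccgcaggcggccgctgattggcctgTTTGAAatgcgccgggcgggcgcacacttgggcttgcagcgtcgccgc
Bub1: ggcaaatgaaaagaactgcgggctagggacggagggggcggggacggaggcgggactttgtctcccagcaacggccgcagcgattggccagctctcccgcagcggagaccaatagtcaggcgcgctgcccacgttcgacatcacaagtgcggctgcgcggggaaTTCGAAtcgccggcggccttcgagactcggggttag
Mki67: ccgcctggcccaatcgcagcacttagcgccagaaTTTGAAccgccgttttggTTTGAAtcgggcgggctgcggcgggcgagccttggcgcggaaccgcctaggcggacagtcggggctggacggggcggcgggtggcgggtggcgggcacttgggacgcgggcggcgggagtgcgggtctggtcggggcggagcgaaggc
Mcm3: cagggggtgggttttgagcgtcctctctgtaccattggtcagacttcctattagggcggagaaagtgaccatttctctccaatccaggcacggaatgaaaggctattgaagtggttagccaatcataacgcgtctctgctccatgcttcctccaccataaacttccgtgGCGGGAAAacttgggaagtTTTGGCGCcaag
Mcm6: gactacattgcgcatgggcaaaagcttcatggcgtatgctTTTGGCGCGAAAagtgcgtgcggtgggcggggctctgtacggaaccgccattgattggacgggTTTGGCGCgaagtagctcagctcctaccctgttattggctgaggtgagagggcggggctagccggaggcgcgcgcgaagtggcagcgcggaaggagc

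None of the 10 S phase genes was called by edgeR, in either direction, and 1, Mcm2, had an unadjusted p under 0.05. DESeq2 also called 0. Their summed level was 58.5, 55.2 and 65.5 CPM in mutants, against 67.8, 60.5 and 64.4 CPM in controls, and these ranges overlapped. In TPM the sums were 34.8, 32.4 and 38.8 in mutants and 57.6, 51.2 and 52.1 in controls, without overlap. The median log2 fold change of the 10 genes was -0.30, with 6 below 0 and 4 above.

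Pcna encodes the sliding clamp that holds DNA polymerase on its template. It had 20.6, 22.2 and 20.5 CPM in mutants, against 21.1, 19.0 and 19.8 CPM in controls (log2 fold change 0.08 ± 0.11, edgeR adjusted p = 0.671). The groups overlapped in CPM. In TPM every mutant was below every control, and at library totals the log2 fold change was -0.32 (edgeR adjusted p = 0.0495), so its direction turned with the scaling.

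Mcm2 to Mcm7 encode the subunits of the helicase that opens DNA at replication origins. Mcm2 had 3.56, 1.91 and 3.03 CPM in mutants, against 4.46, 6.11 and 4.09 CPM in controls (log2 fold change -0.78 ± 0.29, edgeR adjusted p = 0.119). The groups did not overlap, and Mcm2 did not pass. Mcm3, one of the genes whose E2F matches are printed above, had 2.59, 3.90 and 1.89 CPM in mutants, against 6.10, 3.27 and 4.26 CPM in controls (log2 fold change -0.70 ± 0.34, edgeR adjusted p = 0.218). Mcm4 had 3.47, 1.66 and 4.89 CPM in mutants, against 4.91, 4.56 and 5.57 CPM in controls (log2 fold change -0.58 ± 0.36, edgeR adjusted p = 0.322). In both, 1 mutant lay inside the range of the controls.

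Mcm7, the most abundant of the 6 in TPM, had 9.85, 9.67 and 12.5 CPM in mutants, against 10.4, 9.31 and 8.34 CPM in controls (log2 fold change 0.19 ± 0.17, edgeR adjusted p = 0.496). Its groups overlapped, and at library totals its log2 fold change was -0.21. Mcm7 overlaps Cops6 and Ap4m1 on the opposite strand, and whether counting used strand is not given in the sources used here. Mcm5 and Mcm6 had log2 fold changes of -0.56 ± 0.42 and -0.32 ± 0.36. Summed over the 6 genes, the level was 24.9, 20.2 and 25.1 CPM in mutants and 32.1, 26.8 and 27.6 CPM in controls.

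The remaining S phase genes supply DNA building blocks. Rrm1, the large subunit of ribonucleotide reductase, had 6.64, 5.99 and 11.6 CPM in mutants, against 7.82, 9.04 and 12.5 CPM in controls (log2 fold change -0.28 ± 0.28, edgeR adjusted p = 0.565). Its small subunit gene Rrm2 had a log2 fold change of 0.45 ± 0.38. Tyms, which makes thymidylate, had 3.23, 4.43 and 6.48 CPM in mutants, against 4.87, 4.64 and 2.21 CPM in controls (log2 fold change 0.27 ± 0.37, edgeR adjusted p = 0.683). The groups overlapped for all 3 genes, and Tyms turned to -0.13 at library totals.

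**Figure D2:**
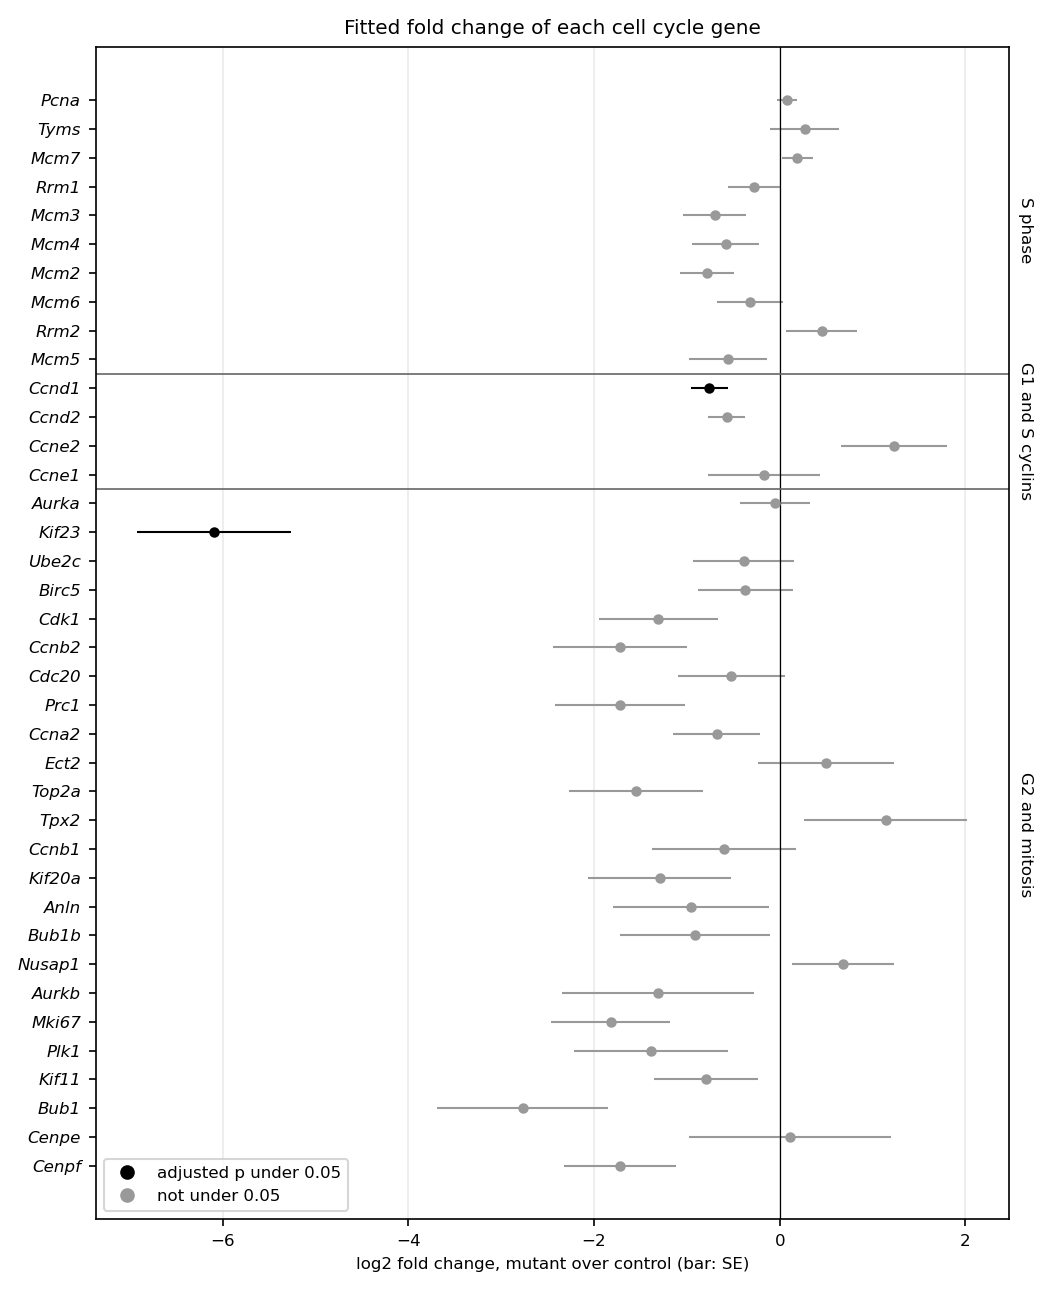
Log2 fold change of each gene, mutant over control, from the edgeR fit over all tested genes, with bars for the SE and black points for an adjusted p under 0.05. Kif23 at -6.09 and Ccnd1 at -0.76 are the called genes, and the bars are wider for most mitotic genes than for S phase genes.

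Among the 4 cyclins of G1 and S phase entry, Ccnd1 fell and the others did not pass. Cyclin D1 is the partner of CDK4 and CDK6 that responds to growth factors. Ccnd1 had 31.8, 21.6 and 18.8 CPM in mutants, against 34.8, 40.3 and 46.8 CPM in controls. The highest mutant, replicate 1, came close to the lowest control, replicate 1, without overlap. Means were 24.1 ± 6.86 CPM in mutants and 40.7 ± 5.99 CPM in controls (SD, n = 3 each; log2 fold change -0.76 ± 0.20, edgeR adjusted p = 0.0437). The adjusted p was 0.0178 without mutant replicate 1 and 0.117 and 0.0967 without mutant replicates 2 and 3. It was 0.0658, 0.105 and 0.131 without control replicates 1, 2 and 3, so the call held in 1 of these 6 edgeR fits. The gene lies on chromosome 7 (mm10, 144929931 to 144939925, minus strand) and overlaps LTO1 on the opposite strand.

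Ccnd2, encoding cyclin D2, had 4.05, 3.70 and 3.81 CPM in mutants, against 6.70, 5.13 and 5.36 CPM in controls (log2 fold change -0.57 ± 0.20, edgeR adjusted p = 0.0997). The groups did not overlap. The E-type cyclin genes Ccne1 and Ccne2 overlapped between groups, with log2 fold changes of -0.17 ± 0.60 and 1.23 ± 0.57. Ccne2 ranged from 0.722 to 3.63 CPM in mutants and from 0.668 to 1.15 CPM in controls.

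Among the 24 genes of G2 and mitosis, 1 fell, 0 rose and 23 did not pass. Their summed level was 13.1, 11.1 and 11.4 CPM in mutants, against 24.1, 20.6 and 20.2 CPM in controls, without overlap. Without Kif23, a sum added after the values were seen, it was 13.0, 11.1 and 11.4 CPM in mutants and 23.1, 18.3 and 16.8 CPM in controls. The median log2 fold change was -0.94, with 20 genes below 0. Of the 24 genes, 19 had a mean under 1 CPM, and 13 passed the filter through the controls alone. Among the 2238 tested genes under 1 CPM, 1395 were below 0, the median was -0.28 and 4.11% were called. In whole liver, fewer cells of a type and less RNA per cell cannot be told apart. Whether mitotic and S phase genes differed in their change was not tested.

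**Figure D3:**
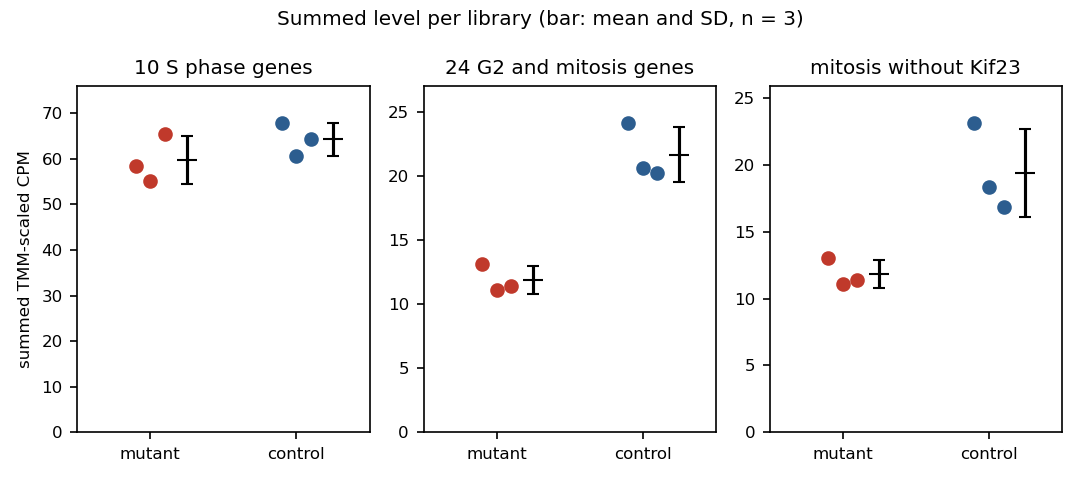
Summed TMM-scaled CPM per library of the 10 S phase genes, the 24 genes of G2 and mitosis, and the mitotic genes without Kif23, with mutants left of controls and bars for the mean and SD of 3 libraries. Mitotic sums of 11.1 to 13.1 CPM in mutants lie below those of 20.2 to 24.1 CPM in controls, and the S phase sums overlap in CPM. In TPM, not drawn, the S phase sums did not overlap, at 32.4 to 38.8 in mutants and 51.2 to 57.6 in controls. Of the 24 mitotic genes 13 passed the filter through the controls alone, and a difference between the roles was not tested.

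Kif23 had the lowest fitted fold change of the 38. It encodes MKLP1, the kinesin of centralspindlin, a complex that bundles microtubules between the separating chromosomes and is needed for cytokinesis. Kif23 had 0.0514, 0.0309 and 0 CPM in mutants, against 0.985, 2.26 and 3.36 CPM in controls (log2 fold change -6.09 ± 0.83, edgeR adjusted p = 0.00332). All controls stood far above every mutant, and the count of 0 in mutant replicate 3 allows up to 0.0967 CPM. Kif23 passed the filter on low counts through its controls alone, with 0 mutant and 3 control libraries over the cutoff. With no filter Kif23 was also called (edgeR adjusted p = 7.7e-06). There were 3 estimated counts over the mutants and 296 over the controls, a scaled ratio of control to mutant of 74.2 with an exact 95% interval from 25.1 to 362 that covers counting error only. On leaving out each library in turn the log2 fold change stayed between -6.87 and -5.61 and called, with edgeR adjusted p from 0.00377 to 0.0158.

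Its mean was 0.0174 TPM in mutants and 2.11 TPM in controls, the highest control mean of the 24 mitotic genes. The gene lies on chromosome 9 (mm10, 61915905 to 61946774, minus strand), and its CHR match, printed above, begins at base 3, counting the start as base 1. The ratio of deposited count to TPM implies 1 length per gene, which was 1840 bases for Kif23. Its coding transcripts Kif23-201 and Kif23-204 have 3398 and 1829 bases in GENCODE M21. Over 1845 genes with 1 annotated transcript the implied length was 0.929 to 1.04 times the annotated one (5th to 95th percentile). The transcripts behind the Kif23 values were not analysed here.

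Other genes of the division plane did not pass. Racgap1, the partner of Kif23 in centralspindlin and not among the 38, had a log2 fold change of -0.68 ± 0.57. Prc1, a bundler of midzone microtubules, had -1.72 ± 0.70, Kif20a, another midzone kinesin, -1.29 ± 0.77, and Anln, an actin-binding scaffold, -0.96 ± 0.84. Ect2, the exchange factor for RhoA, had 0.50 ± 0.73. For Ect2, singled out after its values were seen, mutant replicate 2 had 2.84 CPM and the other mutants 0.627 and 0.345 CPM, and without that library the log2 fold change was -0.87.

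The genes with the smallest p among those not called were Bub1, Cenpf, Ccnd2 and Mki67. Bub1, a kinase of the spindle checkpoint, had 0, 0.0927 and 0.0640 CPM in mutants, against 0.337, 0.247 and 0.520 CPM in controls (log2 fold change -2.77 ± 0.92, edgeR adjusted p = 0.0839), from 5 counts over the mutants and 50 over the controls. Cenpf, a kinetochore protein, had 0.130, 0.187 and 0.129 CPM in mutants, against 0.699, 0.335 and 0.449 CPM in controls (log2 fold change -1.72 ± 0.60, edgeR adjusted p = 0.0994). The groups did not overlap for either gene.

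Mki67 encodes Ki-67, the antigen by which dividing cells are scored in tissue. It had 0.625, 0.188 and 1.39 CPM in mutants, against 3.72, 2.34 and 1.67 CPM in controls (log2 fold change -1.82 ± 0.64, edgeR adjusted p = 0.101). The highest mutant, replicate 3, lay just below the lowest control, replicate 3. Mki67 passed with DESeq2 (adjusted p = 0.0246), limma with no filter (0.0344), and edgeR with no filter (0.0310), at library totals (0.0305) and without mutant replicate 3, its highest mutant (0.0409). At library totals 31.6% of all genes were called lower. In edgeR it did not pass with RLE (adjusted p = 0.0992), the CPM filter (0.0859), robust dispersion (0.0961) or the replicate block (0.109). Nor did it pass without any other 1 library (edgeR adjusted p from 0.127 to 0.282).

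The kinases and cyclins that drive mitosis were low throughout, and none passed. Cdk1, the kinase of mitotic entry, had a log2 fold change of -1.31 ± 0.64. Of its cyclins, Ccnb2 had -1.72 ± 0.72 and Ccna2 -0.68 ± 0.47, both without overlap of the groups, and Ccnb1 had -0.60 ± 0.78 with overlap. The kinase genes Plk1 (-1.39 ± 0.83) and Aurkb (-1.31 ± 1.03) rested on 17 and 13 counts over the mutants. Aurka, a spindle pole kinase whose promoter window also holds a CHR match, had -0.05 ± 0.38.

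Top2a, the topoisomerase that untangles sister DNA, had 0.461, 0.348 and 0.991 CPM in mutants, against 3.44, 1.32 and 0.548 CPM in controls, and is singled out after its values were seen. Its controls spread widely, with replicate 1 the highest, and control replicate 3 lay inside the range of the mutants (log2 fold change -1.55 ± 0.72). The spindle genes Tpx2 and Nusap1 had 1.14 ± 0.88 and 0.68 ± 0.55, and Tpx2 was -0.36 without mutant replicate 1, its highest library at 2.32 CPM. The checkpoint and exit genes Bub1b (-0.91 ± 0.81), Cdc20 (-0.52 ± 0.58) and Ube2c (-0.39 ± 0.54) overlapped between groups. So did the survivin gene Birc5 (-0.37 ± 0.51) and the motor genes Kif11 (-0.79 ± 0.56) and Cenpe (0.11 ± 1.09).

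No single library led the mitotic genes. Among controls, replicate 1 was the highest for 11 of 24, replicate 2 for 3 and replicate 3 for 10. Among mutants, replicate 1 was the highest for 8, replicate 2 for 10 and replicate 3 for 6.

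**Figure D4:**
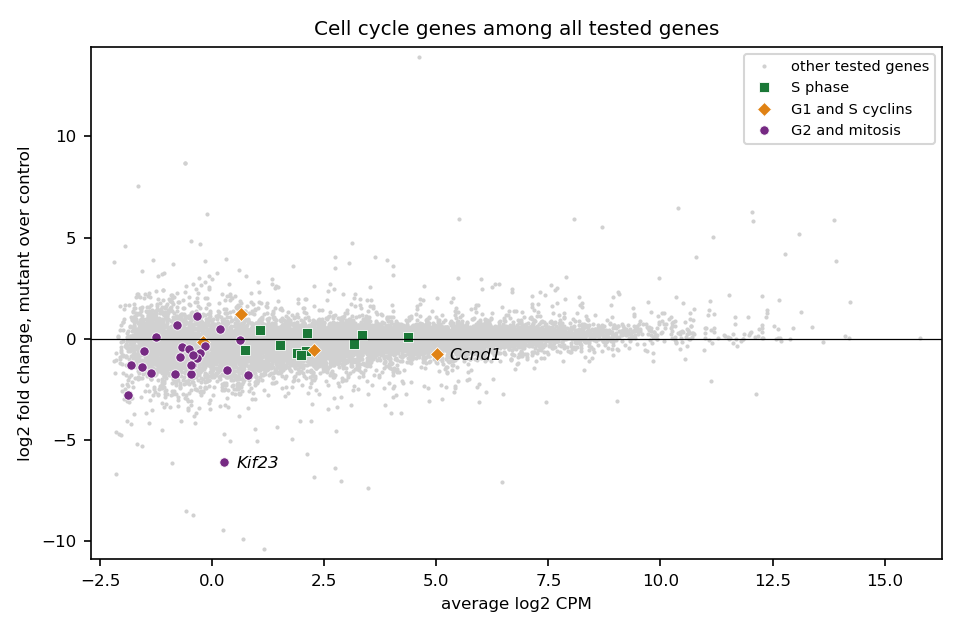
Average log2 CPM (horizontal) and log2 fold change, mutant over control (vertical), of every tested gene in grey, with S phase, cyclin and mitotic genes in colour. Mitotic genes sit at the low end of the level axis, and Kif23 at -6.09 is the lowest of the coloured points.

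Of 25 other replication genes 24 were tested, of which 2 rose, 0 fell and 22 did not pass. An unadjusted p under 0.05 was reached by 4, and DESeq2 called 2 higher and 0 lower. For this list and those that follow, the edgeR shares over all tested genes were 6.82% lower and 6.64% higher. With DESeq2 they were 10.3% and 9.46%. Tk1, the thymidine salvage kinase, had 16.6, 19.2 and 19.2 CPM in mutants, against 5.05, 3.72 and 5.78 CPM in controls (log2 fold change 1.91 ± 0.19, edgeR adjusted p = 8.0e-04). The groups were far apart, and Tk1 was called under every alternative tried. It overlaps Gm20708 and Afmid on the opposite strand.

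Mcm10, a replication initiation factor, also rose, with 82.0, 107 and 74.7 CPM in mutants, against 61.1, 40.5 and 39.3 CPM in controls (log2 fold change 0.91 ± 0.20, edgeR adjusted p = 0.0234). In TPM it had 67.7, 81.3 and 60.3 TPM in mutants, against 73.1, 48.5 and 47.8 TPM in controls, where the groups overlapped. Its implied length was 1507 bases, and its coding transcripts have 4867 and 3494. Retained-intron transcripts of Mcm10 have 508 to 2475 bases, and the transcripts behind the Mcm10 values were not analysed here. The call was lost at library totals (log2 fold change 0.51, edgeR adjusted p = 0.0769) and without control replicate 2 (0.81, adjusted p = 0.0807), control replicate 3 (0.80, adjusted p = 0.0752), mutant replicate 1 (0.96, adjusted p = 0.0557) or mutant replicate 2 (0.73, adjusted p = 0.0599). It was also lost in the 3 limma fits on TPM, each with a log2 fold change of 0.32 (adjusted p from 0.155 to 0.289).

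Of 28 other mitotic genes 17 passed the filter on low counts and were tested. The rest, Ncapg, Kif4 and Ckap2 among them, reached its cutoff in too few libraries, and their directions are not counted here. By edgeR 0 rose and 0 fell, 1 had an unadjusted p under 0.05, DESeq2 called 0, and the median log2 fold change was -0.47, with 13 below 0.

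In the list of E2F, RB, DREAM and FOXM1 genes, 2 of 18 tested rose, 1 fell and 15 did not pass, with a median of 0.09. Rb1, the retinoblastoma gene, fell, with 5.87, 4.81 and 6.51 CPM in mutants, against 12.8, 10.2 and 8.45 CPM in controls (log2 fold change -0.88 ± 0.21, edgeR adjusted p = 0.0292). It overlaps Rcbtb2 and Lpar6 on the opposite strand, and its adjusted p was 0.102 and 0.0748 without control replicates 1 and 2, and 0.0776 and 0.0719 without mutant replicates 1 and 2. Rbl2, the p130 protein of DREAM, rose with TMM scaling (log2 fold change 0.43 ± 0.09, edgeR adjusted p = 0.0205), but was 0.03 at library totals and -0.16 on log2(TPM + 1). Its call was lost without any 1 library except mutant replicate 2, with adjusted p from 0.0505 to 0.0796. Tfdp2, an E2F partner, rose (log2 fold change 0.89 ± 0.20, edgeR adjusted p = 0.0227), and lost its call at library totals (adjusted p = 0.0813) and without control replicate 1 (0.0502), mutant replicate 1 (0.0668) or mutant replicate 2 (0.0645). In the 3 limma fits on TPM its log2 fold change was 0.26 to 0.31 and not called (adjusted p from 0.207 to 0.345).

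Cdk6, a kinase partner of D-type cyclins, fell, with 22.1, 25.9 and 26.9 CPM in mutants, against 38.9, 40.8 and 32.9 CPM in controls (log2 fold change -0.59 ± 0.13, edgeR adjusted p = 0.0219). The groups did not overlap, and the adjusted p was 0.0784, 0.0766 and 0.0796 without control replicate 1, control replicate 2 and mutant replicate 1. It was 1 of 7 tested other G1 cyclins and kinases, of which 6 did not pass. DESeq2 called 1 of the 7 lower and 1 higher. Ccnd3, encoding cyclin D3 and outside the naming rule, went the other way without passing. It had 42.6, 34.5 and 43.9 CPM in mutants, against 31.7, 28.1 and 29.7 CPM in controls (log2 fold change 0.43 ± 0.12, edgeR adjusted p = 0.0529). Its groups did not overlap in CPM and overlapped in TPM. Of 5 tested CDK inhibitor genes edgeR called 0, with 1 at an unadjusted p under 0.05, and DESeq2 called 0.

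Of 12 tested p53 target genes 5 fell, 0 rose and 7 did not pass, with a median of -0.66. Over all tested genes edgeR called 6.82% lower and 6.64% higher. Plk2, a polo-like kinase, had 5.02, 4.09 and 3.56 CPM in mutants, against 10.8, 9.20 and 9.48 CPM in controls (log2 fold change -1.21 ± 0.19, edgeR adjusted p = 0.00596). Ccng1, encoding cyclin G1, averaged 34.4 ± 2.60 CPM in mutants and 54.3 ± 3.17 CPM in controls (SD, n = 3 each; log2 fold change -0.66 ± 0.10, edgeR adjusted p = 0.00646). The groups were apart for both, and both were called under every alternative tried, as was Zmat3 (log2 fold change -0.92 ± 0.17, edgeR adjusted p = 0.0120). Btg2, an antiproliferative gene (log2 fold change -0.82 ± 0.19, edgeR adjusted p = 0.0268), lost its call without mutant replicate 1 (0.0577) or any 1 control (0.0605 to 0.0861). Bax, a cell death gene outside the naming rule (log2 fold change -0.66 ± 0.17, edgeR adjusted p = 0.0395), lost it without any 1 library except control replicate 3 (0.0669 to 0.123).

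Among 8 tested genes of hepatocyte mitogens and their receptors, 1 rose, 1 fell and 6 did not pass. Egfr, the receptor of epidermal growth factor, had 556, 489 and 359 CPM in mutants, against 146, 121 and 68.2 CPM in controls (log2 fold change 2.07 ± 0.27, edgeR adjusted p = 0.00302). Hgf, hepatocyte growth factor, had 3.31, 3.25 and 5.63 CPM in mutants, against 13.6, 6.94 and 12.3 CPM in controls (log2 fold change -1.43 ± 0.31, edgeR adjusted p = 0.0223). The groups did not overlap for either. Egfr was called under every alternative tried, and Hgf had adjusted p of 0.0774 and 0.0689 without control replicates 1 and 3, and of 0.0765 and 0.0648 without mutant replicates 1 and 2.

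**Figure D5:**
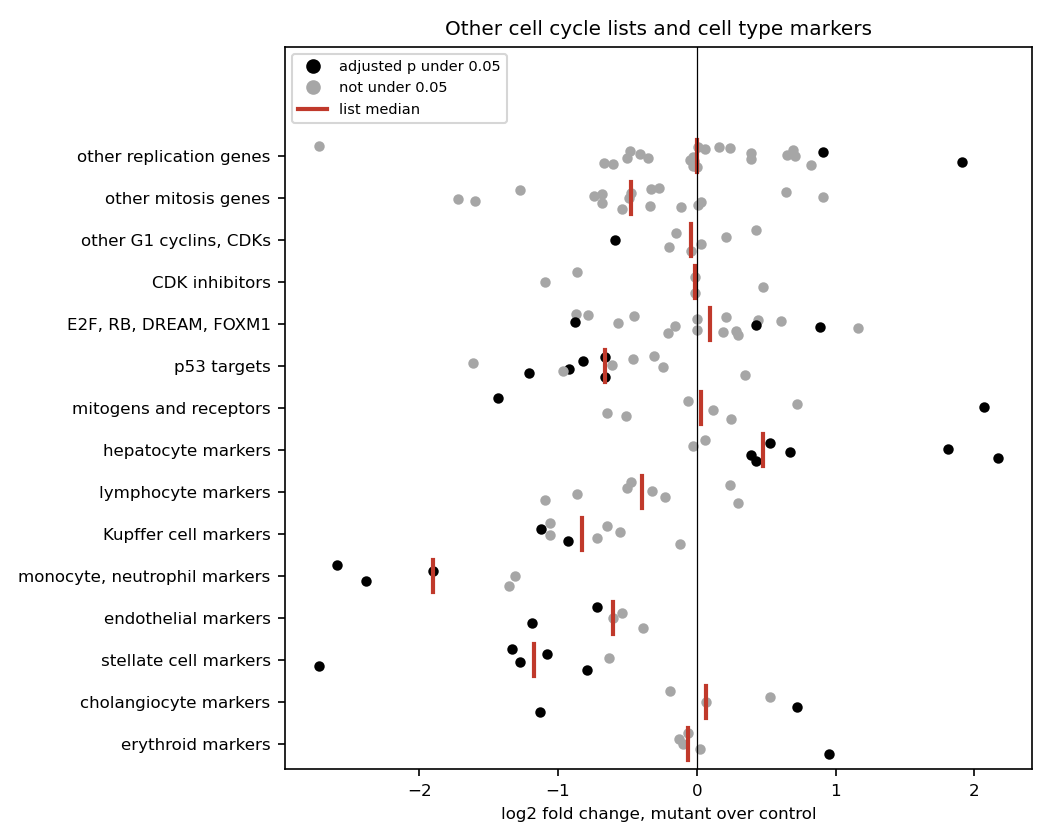
Log2 fold change, mutant over control, of every tested gene in 7 other cell cycle lists and 8 cell type marker lists, with black points for an adjusted p under 0.05 and a red bar for the list median. Medians lie at -1.90 for monocyte and neutrophil, -1.18 for stellate, -0.82 for Kupffer and 0.48 for hepatocyte markers.

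Beside the mitotic sums, the summed markers of monocytes and neutrophils, Kupffer cells, stellate cells and cholangiocytes were lower in every mutant than in every control. Most of the cholangiocyte sum was Spp1. Endothelial and lymphocyte sums overlapped between groups. Calls in the marker lists stand beside 6.82% of all tested genes called lower and 6.64% called higher. Hepatocyte markers had the highest sums of the marker lists, at 71623 to 81816 CPM in mutants and 63351 to 76082 CPM in controls over 8 genes, of which 6 rose and 0 fell. Most of the hepatocyte sum was Alb, which was not called (log2 fold change 0.06 ± 0.12, edgeR adjusted p = 0.813). Monocyte and neutrophil markers summed to 2.54 to 3.64 CPM in mutants and 10.8 to 13.8 CPM in controls, and 3 of 5 fell. Kupffer cell markers summed to 103 to 207 CPM in mutants and 234 to 322 CPM in controls, and 2 of 8 fell.

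Stellate cell markers summed to 110 to 136 CPM in mutants and 249 to 262 CPM in controls, and 5 of 6 fell. Endothelial markers summed to 57.8 to 84.2 CPM in mutants and 75.9 to 136 CPM in controls, and 2 of 5 fell. Lymphocyte markers summed to 3.32 to 4.90 CPM in mutants and 4.70 to 6.01 CPM in controls, and edgeR called 0 of 8, with 0 at an unadjusted p under 0.05 and 0 called by DESeq2. Cholangiocyte markers summed to 32.1 to 47.3 CPM in mutants and 62.7 to 91.5 CPM in controls, and of 5 genes 1 rose and 1 fell. Spp1, the gene that fell, made up most of this sum, with means of 30.6 CPM in mutants and 66.8 CPM in controls. Sox9 rose, with means of 8.66 CPM in mutants and 5.24 CPM in controls, and the median log2 fold change of the list was 0.07. Of 5 erythroid markers 1 rose and 0 fell. No marker of these lists was at 0 in every library. The part of these cell types in the levels of the mitotic genes was not tested.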

How the data were processed

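Per the labels' protocols, total RNA was purified on RNeasy columns with DNase treatment, poly(A)-enriched libraries were made by Novogene, and paired reads of 150 bases were taken on the NovaSeq6000 platform. Cutadapt, STAR and build mm10 were used, per the submitters' processing notes. For the program behind the gene values, its annotation, the versions and the strandedness, nothing is stated. The authors deposited estimated counts per gene and TPM per gene for all 6 libraries. Over 10983 genes the deposited estimated counts were the TPM times a fixed factor per gene and library (largest relative deviation 5.72e-10), so they are scaled abundances and counting error is only approximated.

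Estimated counts were rounded, and edgeR 4.0.16 (R 4.3.3) was run on them (filterByExpr, TMM, quasi-likelihood F-test on group, Benjamini-Hochberg adjustment over 14286 genes). Alternatives were RLE or library totals, other filters, DESeq2 1.42.0, robust dispersion, a replicate block, each library left out, and limma 3.58.1 on log2(TPM + 1) and log2(TPM + 0.1). The procedure was tested on counts simulated for genes of all levels, and not on the low-count mitotic genes apart. Gene positions came from GENCODE M21 on the same assembly, in which 99.5% of identifiers were found. No pair of libraries was a near-duplicate (chi-square per gene 48.2 to 89.9). The labels do not say that libraries are separate animals, so p-values reflect library-to-library spread only. Intervals and the 3-count limit for a count of 0 cover counting error only.

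The genes, lists and tests were chosen with earlier results of these data known. Values per library are given for called members, the 8 with the highest mean TPM and the 4 uncalled with the smallest p. From each other cell cycle list up to 4 called genes with the smallest p are named.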

Additional observations from a re-analysis of the deposited data

How the results depend on the processing

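Calls moved with the scaling. All genes called higher and lower, 949 and 974, were 293 and 4508 at library totals, 217 and 7362 with limma on log2(TPM + 1), 211 and 7315 on log2(TPM + 0.1), and 190 and 6391 with limma and no filter, while DESeq2 called 1475 lower. Leaving out each library gave 426 to 758 higher and 430 to 756 lower. S phase genes called lower, 0, were 3 at library totals and 5, 5 and 3 in the 3 limma fits. Cyclins called lower, 1, were 2 at library totals and in each limma fit, 0 with the replicate block, and 0 to 1 on leaving out a library. Mitotic genes called lower, 1, were 5 at library totals, 2 with no filter, 2 with DESeq2, 0, 0 and 5 with limma, and 1 to 2 on leaving out a library. The filter of the limma fits that gave 0, at least 1 TPM in 3 libraries, removes Kif23 and most other mitotic genes. Those genes were not tested in these fits. No member was called higher in any fit. Other cell cycle genes called lower, 8, were 27 at library totals, 39, 40 and 33 with limma and 3 to 7 on leaving out a library. Those called higher, 5, were 2 at library totals and in each limma fit, and 2 to 4 on leaving out a library. Markers called lower, 13, were 26 at library totals, 28, 28 and 23 with limma and 7 to 13 on leaving out a library. Markers called higher, 8, were 3 at library totals, 2, 2 and 1 with limma and 4 to 8 on leaving out a library.

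None of the members with a turned log2 fold change was called in the main edgeR test. At library totals Mcm7 was -0.21, Pcna -0.32, Tyms -0.13 and Cenpe -0.29. In the limma fits, in the order above, Mcm7 was -0.34, -0.40 and -0.34, Pcna -0.49, -0.51 and -0.49, Rrm2 -0.07, -0.10 and -0.07, and Tyms -0.26, -0.30 and -0.26. With limma and no filter Ect2 was -0.08 and Cenpe -0.04. With the replicate block Ect2 was -0.03 and Cenpe -0.74. On leaving out each library, Tyms ranged from -0.02 to 0.48, Ccne1 from -0.72 to 0.26, Ccnb1 from -1.10 to 0.09, Aurka from -0.20 to 0.26, Birc5 from -0.72 to 0.05, Cenpe from -1.71 to 0.68, Ect2 from -0.87 to 0.95 and Tpx2 from -0.36 to 1.65. The log2 ratio of summed TPM was -0.60 for S phase genes and -1.44 for mitotic genes, against -0.11 and -0.87 in TMM-scaled CPM. It was -1.24 for mitotic genes without Kif23, chosen after seeing the data. The cause of these shifts was not tested.

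Same-numbered libraries did not deviate together (correlations 0.0167, -0.00322 and 0.0634). With 3 libraries in each group, these values cannot exclude a weak pairing. With the replicate block 775 genes were called higher and 783 lower, and Ccnd1 had an edgeR adjusted p of 0.0707. Low counts limit the mitotic genes most. The CPM filter kept 17 of the 38 members.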
